A study of Homo sapiens with 10 samples.

Results

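The enzymes of the pentose phosphate pathway and of nucleotide synthesis were examined in QGP-1 cells, a human line grown from a pancreatic neuroendocrine tumor. The set was a list of 34 gene symbols grouped by pathway, chosen with earlier results of these data known. Of these, 33 were found by name in both expression tables and had a mean of at least 1 CPM in each. PGLS was not analysed here. The 33 genes, out of 35606 gene rows per table, comprised 7 of the pentose phosphate group (with the PRPP synthetases PRPS1 and PRPS2), 10 of purine synthesis, 6 of pyrimidine synthesis and 10 of deoxynucleotide supply. They were tested among all 13591 genes of the knockdown table and all 13520 genes of the drug table that passed the same minimum.

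RNA-seq was available for 10 libraries, 2 in each of 5 groups. The first table held cells with CRISPR interference (CRISPRi), in which a nuclease-dead Cas9 fused to a KRAB repressor silences a gene at its start. They carried either the control guide sgNC (genotype WT) or the single guide sgPIKFYVE-1 (genotype PIKFYVE knockdown). Both lines carry the lentiviral CRISPRi machinery and neither received apilimod or Torin-1. Per the paper's methods, the CRISPRi lines went through puromycin selection after infection. The second table held WT QGP-1 cells given DMSO, apilimod (1 µM), an inhibitor of the lipid kinase PIKfyve, or Torin-1 (0.1 µM), an inhibitor of the kinase mTOR, for 24 h by the labels. Legends in the paper name a shorter treatment. Labels did not say whether the 2 libraries of a group came from separate cultures, so p-values measure the spread between these libraries only, which may be technical. Knockdown by 1 guide cannot be told apart from an effect of that guide elsewhere.

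The libraries held an estimated 9.01 to 13.1 M reads, at which 3 reads correspond to 0.229 to 0.333 CPM, a limit for counting error only. PIKFYVE was at 101 and 97.5 CPM with sgNC and at 10.9 and 12.5 CPM with sgPIKFYVE-1. Of 8 neuroendocrine markers, CHGA, CHGB, SYP, ENO2, INSM1, SCG2 and SCG5 were at 71.5 CPM or more in every library and NEUROD1 at 0.70 CPM or less. The leukocyte gene PTPRC stayed under 1 CPM, and the fibroblast genes COL1A1 and COL1A2 reached at most 9.60 and 0.58 CPM. The endothelial gene PECAM1 was at 1.75 to 3.75 CPM in the knockdown table and at 0.89 to 1.81 CPM in the drug table.

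The pentose phosphate pathway turns glucose 6-phosphate into NADPH and ribose 5-phosphate, which PRPP synthetases activate for the building of purine and pyrimidine rings. Ribonucleotide reductase, thymidylate synthase and the nucleoside kinases then supply the deoxynucleotides for DNA synthesis, and several of these genes are known to be expressed with S phase. mTORC1 is known to promote both purine and pyrimidine synthesis, and the pathway thus joins growth signalling to DNA and RNA production.

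Promoter sequences from RefSeq (GRCh38.p14) are shown for PGD and TKT, which rose with apilimod, NME1, with the lowest log2 fold change of the members with Torin-1, and the divergent pair PPAT and PAICS, which moved in the same directions and share 1 upstream interval. The runs of TKT, NME1 and the PPAT and PAICS pair end before the first annotated transcribed base. The PGD run lies inside the annotated gene, which starts at 10398592, but holds 0 annotated exon bases and ends before the RefSeq start. Capitals mark a CCAAT box (CCAAT, or ATTGG on the other strand) or an SP1-type GC box (GGGCGG, or CCGCCC on the other strand).
PGD, chr1:10398814-10399043, forward strand: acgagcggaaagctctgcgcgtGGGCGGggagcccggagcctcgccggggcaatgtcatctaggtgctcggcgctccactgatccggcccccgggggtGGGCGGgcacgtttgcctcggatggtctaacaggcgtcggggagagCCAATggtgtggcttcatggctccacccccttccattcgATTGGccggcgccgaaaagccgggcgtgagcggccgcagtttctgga
TKT, chr3:53256053-53256272, reverse strand: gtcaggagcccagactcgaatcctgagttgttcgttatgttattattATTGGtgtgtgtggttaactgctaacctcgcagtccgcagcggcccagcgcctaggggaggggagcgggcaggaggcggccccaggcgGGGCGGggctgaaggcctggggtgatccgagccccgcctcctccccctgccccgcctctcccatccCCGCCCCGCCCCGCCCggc
NME1, chr17:51153309-51153535, forward strand: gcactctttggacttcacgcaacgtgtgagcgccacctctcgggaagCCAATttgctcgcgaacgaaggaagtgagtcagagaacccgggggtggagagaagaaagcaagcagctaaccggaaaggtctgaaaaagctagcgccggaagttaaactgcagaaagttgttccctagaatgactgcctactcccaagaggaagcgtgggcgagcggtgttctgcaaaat
PPAT and PAICS, chr4:56435616-56435740, forward strand of PAICS: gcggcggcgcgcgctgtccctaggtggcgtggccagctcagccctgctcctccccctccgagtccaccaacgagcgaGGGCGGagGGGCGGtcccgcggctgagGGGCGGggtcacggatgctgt

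PGD and TKT upstream sequences each held both a CCAAT and a GC box letter match. The 125 bases between PPAT, on the reverse strand, and PAICS, on the forward strand, held 3 GGGCGG matches and no CCAAT. In NME1 the CCAAT match was 203 bases before the RefSeq start. A promoter window of 250 bases before and 50 after a RefSeq start was given for 30 of the 33 members (not for ADSL, IMPDH2 and RRM2B). GGGCGG was in 24 of these 30 windows (80%), against 45.0% of all 35116 windows and 65.1% of the 15175 windows of genes tested in the knockdown table. CCAAT was in 14 windows (46.7%), against 34.6% and 34.7%. The E-box CACGTG was in 6 (PPAT, PAICS, ATIC, DHODH, DCK and NME1; 20%), against 7.26% and 9.11%, and PPAT and PAICS share theirs, at chr4:56435792-56435797, which lies 40 bases past the PAICS start. An E2F motif (TTTGGCGC or TTTCCCGC) was in 3 (PRPS2, TYMS and DCK; 10%), against 2.27% and 3.25%. All motifs were searched on both strands; CACGTG reads alike on both, and the motifs do not contain one another. A match of letters is a description of the sequence and not a site of binding.

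In the control cells the levels per kilobase of transcript ranged over the members from 3.48 CPM per kilobase for DHODH to 127 for TALDO1 with sgNC, and from 4.62 for DHODH to 215 for RRM2 with DMSO. With sgNC, TALDO1 was followed by NME1 (96.8 CPM per kilobase), PGD (80.0) and TKT (61.3). With DMSO, RRM2 was followed by NME1 (183), TALDO1 (148) and RRM1 (108). The lengths are those of 1 principal transcript per gene in GENCODE release 29, so these levels depend on that choice.

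PIKFYVE knockdown raised most of the set. In the comparison of sgPIKFYVE-1 with sgNC, 24 of the 33 members were higher and 0 lower past an adjusted p of 0.05 (limma's moderated test on log2(CPM + 1), Benjamini-Hochberg over all genes tested), where 21.6% of all genes tested were called higher and 20.9% lower. Without adjustment (p under 0.05) the counts were also 24 and 0. The median log2 fold change was 0.25 over the members and -0.0042 over all genes tested. By group, 5 of 7 pentose phosphate, 8 of 10 purine, 4 of 6 pyrimidine and 7 of 10 deoxynucleotide genes were higher, with medians of 0.25, 0.23, 0.27 and 0.47. Without the trend of variance on expression in the fit, 11 of the 24 passed; leaving out 1 library at a time left between 17 and 20.

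**Figure D1:**
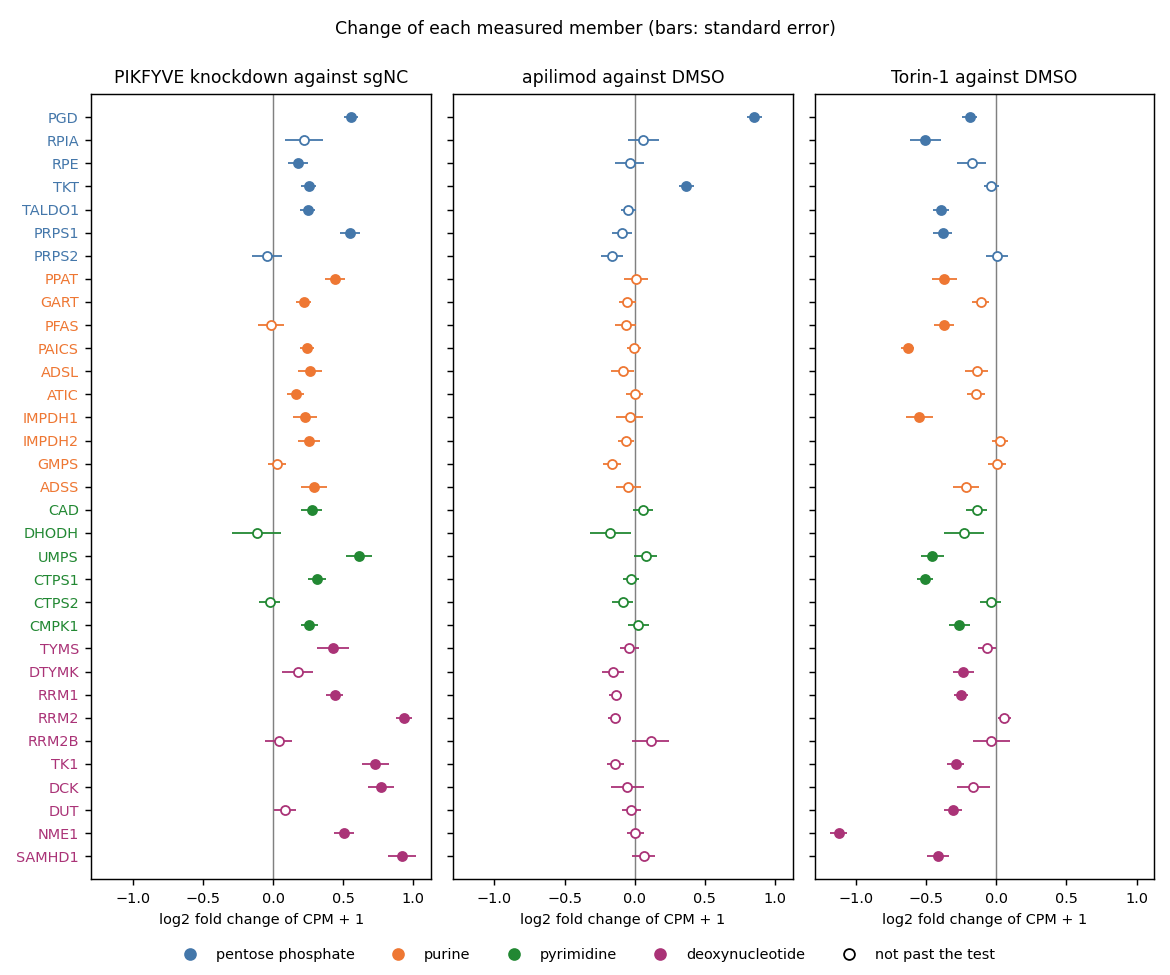
Log2 fold change (x axis, on log2(CPM + 1)) of each of the 33 measured members (rows, coloured by group) in the knockdown and with each drug; bars are standard errors (n = 2 libraries per group), filled points passed an adjusted p of 0.05 and open points did not. Filled points lie to the right in the knockdown (24 genes), at PGD and TKT alone with apilimod, and to the left with Torin-1 (17 genes).

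In the pentose phosphate group, PGD, which makes ribulose 5-phosphate and NADPH in the oxidative branch (ENSG00000142657.21; chromosome 1, 10398592 to 10420144, GRCh38), was at 151 and 151 CPM with sgNC and 223 and 221 CPM with sgPIKFYVE-1. The groups were far apart relative to their replicates, and the log2 fold change was 0.56 (SE 0.051, adjusted p = 5.41e-08). PRPS1, a PRPP synthetase, was at 60.9 and 65.8 CPM with sgNC and at 92.5 and 93.4 CPM in the knockdown, a log2 fold change of 0.55 (SE 0.069, adjusted p = 3.16e-06). Its paralog PRPS2 was at 27.2 and 29.9 CPM against 26.2 and 29.2 CPM, with overlapping groups and a 95% interval of the log2 fold change from -0.27 to 0.18.
TKT, transketolase of the non-oxidative branch (ENSG00000163931.16; chromosome 3, 53224707 to 53256052), was at 181 and 187 CPM with sgNC and at 225 and 216 CPM in the knockdown, a log2 fold change of 0.25 (adjusted p = 5.54e-04). TALDO1 (transaldolase) and RPE (ribulose-phosphate epimerase) also passed, at 0.25 and 0.18, though RPE lost its call with any 1 library left out (adjusted p up to 0.183), and the isomerase gene RPIA did not, at 0.22 with overlapping groups.

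In purine synthesis, PPAT, the amidotransferase of the committed step, was at 56.1 and 54.0 CPM with sgNC and at 72.2 and 78.0 CPM with sgPIKFYVE-1, the largest log2 fold change of the group at 0.44 (SE 0.074, adjusted p = 8.76e-05). IMPDH1 and IMPDH2, the isozymes of the first step towards GMP, both passed with small changes. IMPDH1 was at 49.9 and 42.8 CPM against 54.4 and 54.0 CPM (log2 fold change 0.23, adjusted p = 0.0423). IMPDH2 was at 74.6 and 87.1 CPM against 102 and 91.3 CPM (0.25, adjusted p = 0.0125). The other 5 that passed, GART, PAICS, ADSL, ATIC and ADSS, had log2 fold changes from 0.16 to 0.29. PFAS, at -0.02, and GMPS, at 0.03, did not pass. ADSL, ADSS, ATIC, IMPDH1 and IMPDH2 each lost their call without 1 of the libraries of either group, with adjusted p-values up to 0.174, 0.131, 0.421, 0.457 and 0.236.

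In pyrimidine synthesis, UMPS, which completes UMP, rose from 28.5 and 28.1 CPM to 45.1 and 42.7 CPM (log2 fold change 0.62, SE 0.093, adjusted p = 2.53e-05). CTPS1, one of the CTP synthases, was at 86.6 and 84.3 CPM with sgNC and at 101 and 112 CPM in the knockdown (0.31, adjusted p = 8.87e-04). CAD, the trifunctional enzyme that starts the ring, was at 59.0 and 64.1 CPM against 78.5 and 71.1 CPM (0.28, adjusted p = 0.00650), and lost its call without the first sgNC or the first sgPIKFYVE-1 library (adjusted p = 0.0847 and 0.0756). CMPK1, a UMP/CMP kinase, passed at 0.26. DHODH, the mitochondrial dehydrogenase and the lowest member per kilobase, was at 8.50 and 8.41 CPM against 7.44 and 8.0 CPM, with an interval from -0.48 to 0.25. CTPS2 was at -0.03 and did not pass.

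The highest log2 fold changes of the set were in deoxynucleotide supply. RRM2, the small subunit of ribonucleotide reductase made in S phase (ENSG00000171848.15; chromosome 2, 10120698 to 10131419), stood at 110 and 117 CPM in the sgNC libraries and rose to 215 and 218 CPM in the knockdown (log2 fold change 0.93, SE 0.056, adjusted p = 9.55e-11). SAMHD1, which breaks deoxynucleoside triphosphates down (ENSG00000101347.9; chromosome 20, 36889773 to 36951901), rose from 22.4 and 25.8 CPM to 46.6 and 45.9 CPM (0.92, SE 0.099, adjusted p = 4.35e-07). Thus an enzyme of synthesis and an enzyme of breakdown stood at nearly equal log2 fold changes.
DCK, deoxycytidine kinase of the salvage route, rose from 26.8 and 27.8 CPM to 45.7 and 49.0 CPM (0.77, adjusted p = 1.64e-06). TK1, the cytosolic thymidine kinase, rose from 31.2 and 33.4 CPM to 58.7 and 50.2 CPM (0.73, adjusted p = 3.82e-06). NME1, a nucleoside diphosphate kinase, rose from 85.7 and 96.4 CPM to 136 and 124 CPM (0.51, adjusted p = 8.04e-06). In each of these 3 genes both knockdown libraries were above both controls.
RRM1, the large reductase subunit, was at 107 and 111 CPM against 141 and 154 CPM (0.44, adjusted p = 9.52e-06). TYMS, thymidylate synthase, was at 19.2 and 19.6 CPM against 27.8 and 25.0 CPM (0.43, adjusted p = 0.00559), and it missed the threshold without the first sgPIKFYVE-1 library (adjusted p = 0.0520). RRM2B, the reductase subunit known as a p53 target and used outside S phase, was at 36.6 and 35.5 CPM against 34.9 and 39.6 CPM, with overlapping groups and an interval from -0.16 to 0.24. DTYMK and DUT did not pass, at 0.18 and 0.08.

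**Figure D2:**
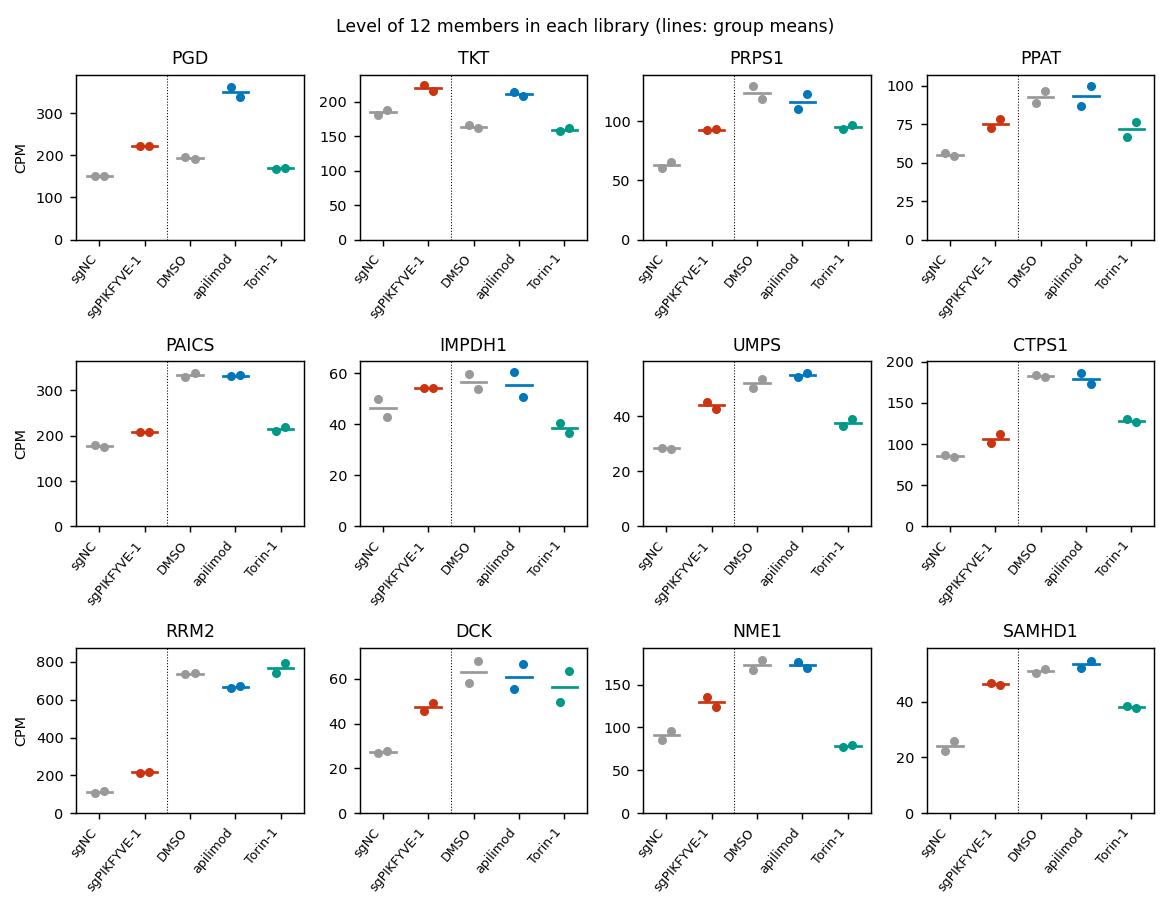
CPM (y axis, from 0) of 12 members in each of the 10 libraries; points are libraries, horizontal lines group means, and the dotted line separates the tables, which were normalized separately. RRM2 lies at 215 and 218 CPM with sgPIKFYVE-1 over 110 and 117 CPM with sgNC, PGD is highest with apilimod (363 and 339 CPM), and NME1 is lowest with Torin-1 (77.1 and 80.0 CPM).

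Genes of proliferation moved with this group, while the paper reported slower growth of its neuroendocrine tumor lines after PIKFYVE knockdown. Of 32 DNA replication genes, 27 were higher and 0 lower in the knockdown (median log2 fold change 0.65), and of 20 genes of mitosis 20 were higher (median 0.59). Of 14 p53 targets, 5 were higher and 1 lower, with CDKN1A at 1.80. Their part in the change of the deoxynucleotide genes was not tested, and in bulk RNA a larger share of cells in S phase cannot be told apart from more RNA per cell.

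Apilimod changed few members, as it changed few of all genes tested. PGD and TKT were higher and 0 members lower. These 2 of 33 are near the share over all genes tested, of which 5.75% were called higher and 2.79% lower. Without adjustment (p under 0.05), 2 were higher and 4 lower (GMPS, RRM1, RRM2 and TK1). The median log2 fold change was -0.04 over the members and -0.0057 over all genes tested, and the medians of the groups lay between -0.05 and -0.00083.

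PGD was at 196 and 191 CPM with DMSO and at 363 and 339 CPM with apilimod, a log2 fold change of 0.85 (SE 0.053, adjusted p = 6.89e-08). TKT was at 166 and 161 CPM with DMSO and at 214 and 208 CPM with apilimod, 0.37 (SE 0.053, adjusted p = 3.96e-04). Both genes were higher in each apilimod library than in each DMSO library, as they were in the knockdown against sgNC. Without the variance trend TKT missed the threshold in the knockdown (adjusted p = 0.0658) and with apilimod (adjusted p = 0.0529). That left PGD alone with apilimod.
The remaining pentose phosphate members RPIA, RPE and TALDO1 were at log2 fold changes of 0.06, -0.04 and -0.05.

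PRPS1 was at 130 and 119 CPM with DMSO and 110 and 123 CPM with apilimod, and PRPS2 at 55.8 and 56.6 CPM against 49.1 and 51.2 CPM; neither passed. PPAT was at 88.9 and 96.4 CPM against 86.7 and 99.8 CPM, with overlapping groups. IMPDH1 was at 59.6 and 53.9 CPM against 60.3 and 50.6 CPM, and IMPDH2 at 138 and 135 CPM against 133 and 129 CPM. None of the 10 purine genes passed, and their log2 fold changes ran from -0.16 to 0.0073.
CAD was at 111 and 103 CPM with DMSO and at 118 and 105 CPM with apilimod, and CTPS1 at 184 and 182 CPM against 186 and 173 CPM. DHODH was at 10.5 and 11.9 CPM against 9.51 and 10.1 CPM, with an adjusted p of 0.553. The 6 pyrimidine genes lay between -0.17 and 0.08 in log2 fold change and none passed.
RRM2 was at 735 and 741 CPM with DMSO and at 661 and 675 CPM with apilimod, and the log2 fold change of -0.14 had an adjusted p of 0.0560. RRM1 was at 322 and 340 CPM against 300 and 303 CPM (-0.14, adjusted p = 0.110), and TK1 at 128 and 123 CPM against 113 and 114 CPM (-0.14, adjusted p = 0.210). With quantile normalization RRM1 and RRM2 passed as lower, which made the count 2 higher and 2 lower. TYMS was at 102 and 108 CPM against 103 and 102 CPM, SAMHD1 at 50.3 and 51.8 CPM against 52.2 and 54.7 CPM, and RRM2B at 27.9 and 33.4 CPM against 29.7 and 37.0 CPM. The intervals of the 31 members that did not pass spanned -0.48 to 0.39.
Of the DNA replication genes 0 were higher and 2 lower with apilimod (median -0.03), and of the mitosis genes 0 were higher and 10 lower (median -0.22). Their part in the values of the deoxynucleotide genes was not tested.

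Torin-1 lowered about as many members as it left uncalled. Of 33 members 0 were higher and 17 lower, where 16.6% of all genes tested were called higher and 21.8% lower. Without adjustment (p under 0.05) the counts were 0 and 19. The median was -0.23 over the members and -0.01 over all genes tested. By group, 4 of 7 pentose phosphate, 4 of 10 purine, 3 of 6 pyrimidine and 6 of 10 deoxynucleotide genes were lower, with medians of -0.19, -0.18, -0.25 and -0.24. The DMSO libraries were those of the apilimod comparison, so the results for the drugs share their controls.

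NME1 (ENSG00000239672.7; chromosome 17, 51153536 to 51162428) fell from 167 and 178 CPM with DMSO to 77.1 and 80.0 CPM with Torin-1, which was 45.5% of the control mean (log2 fold change -1.12, SE 0.061, adjusted p = 9.89e-09). With apilimod it was at 176 and 169 CPM. NME1 shares 638 of its 3438 annotated exon bases with the readthrough gene NME1-NME2, which averaged 8.38 CPM in this table, and how reads were divided between them is not given in the sources used here. The neighbour NME2, a second diphosphate kinase and not on the list, was at 341 and 324 CPM with DMSO and 250 and 263 CPM with Torin-1 (-0.38, adjusted p = 5.87e-05).

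PAICS, the bifunctional enzyme of the middle of the purine route (ENSG00000128050.8; chromosome 4, 56435741 to 56464579), fell from 330 and 338 CPM to 211 and 219 CPM (-0.63, SE 0.048, adjusted p = 2.82e-07). PPAT, its neighbour across the interval shown above (ENSG00000128059.8; chromosome 4, 56393362 to 56435615), fell from 88.9 and 96.4 CPM to 66.6 and 76.5 CPM (-0.37, SE 0.087, adjusted p = 0.00400). In the knockdown the same pair was higher, at 0.24 and 0.44. PPAT missed the threshold without the variance trend (adjusted p = 0.0572).
IMPDH1 fell to 40.3 and 36.6 CPM (-0.55, SE 0.098, adjusted p = 6.18e-04), whereas IMPDH2 was at 140 and 138 CPM, with an interval from -0.09 to 0.15. PFAS was lower at -0.37. GART, ADSL, ATIC, GMPS and ADSS did not pass, with log2 fold changes from -0.22 to 0.0036.

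In the pentose phosphate group RPIA, the isomerase that yields ribose 5-phosphate, fell from 22.5 and 21.7 CPM to 14.8 and 15.8 CPM (-0.51, SE 0.112, adjusted p = 0.00278). PRPS1 fell to 93.3 and 97.0 CPM (-0.38, adjusted p = 7.70e-04) and TALDO1 was lower at -0.39. PRPS2, at 53.9 and 58.9 CPM, overlapped its controls. PGD was at 168 and 171 CPM (-0.19, adjusted p = 0.0119), a call lost without the variance trend, with quantile normalization and without either DMSO library (adjusted p = 0.105 and 0.0503). TKT, at 157 and 161 CPM, overlapped the DMSO libraries, with an interval from -0.15 to 0.08. RPE did not pass, at -0.18.

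Of the pyrimidine genes, CTPS1 fell to 130 and 126 CPM (-0.51, SE 0.057, adjusted p = 1.21e-05), UMPS was lower at -0.46 and CMPK1 at -0.26; CMPK1 lost its call without the second DMSO or the first Torin-1 library (adjusted p = 0.101 and 0.130). CTPS2 was at -0.04 and did not pass. CAD was at 98.5 and 95.3 CPM (-0.14, adjusted p = 0.144) and DHODH at 9.62 and 9.20 CPM (-0.23, adjusted p = 0.231), and neither passed.

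Among deoxynucleotide genes, SAMHD1 fell to 38.4 and 37.6 CPM (-0.42, SE 0.080, adjusted p = 0.00105). TK1 fell to 104 and 100 CPM (-0.29, adjusted p = 0.00190), RRM1 to 275 and 280 CPM (-0.25, adjusted p = 9.47e-04), DUT was lower at -0.31 and DTYMK at -0.24, a call that DTYMK lost with any 1 library left out (adjusted p up to 0.156). RRM2, the partner of RRM1 in the reductase, was at 741 and 797 CPM with Torin-1, overlapping the DMSO libraries, with an interval from -0.03 to 0.15. TYMS, at 96.5 and 104 CPM, and RRM2B, at 26.9 and 32.9 CPM, also overlapped their controls, and DCK did not pass at -0.16.
In the DNA replication list 4 genes were higher and 13 lower with Torin-1 (median -0.16), with CDT1 at 1.37 and PRIM1 at 0.81 among the higher, and in the mitosis list 0 were higher and 15 lower (median -0.31). Their part in the changes of the members was not tested.

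**Figure D3:**
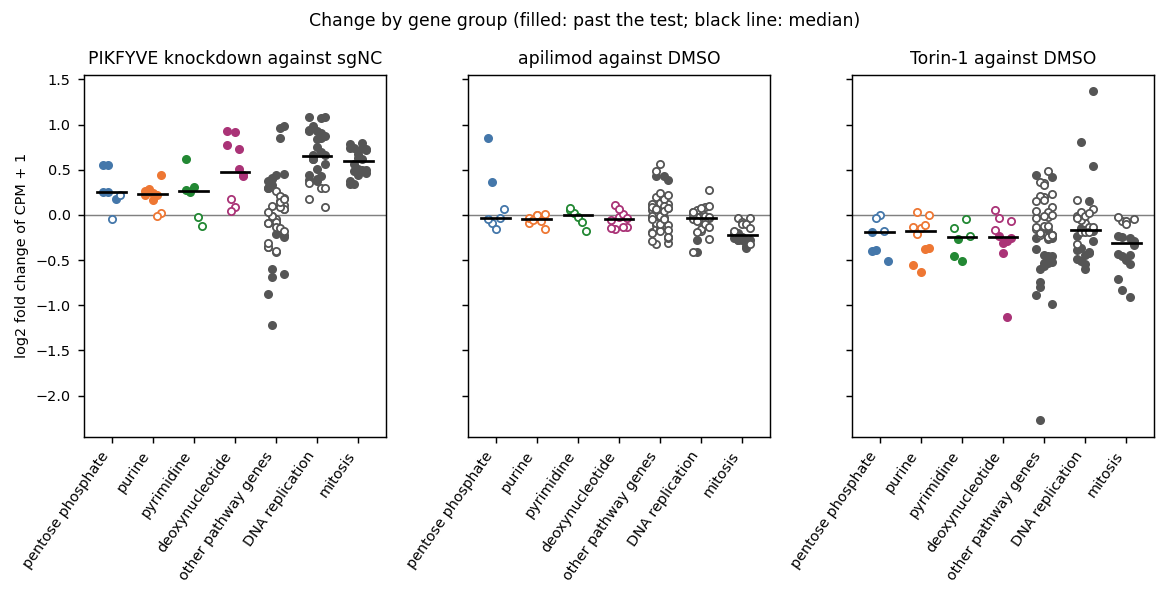
Log2 fold change (y axis, on log2(CPM + 1)) of single genes by group: the 4 groups of members, the other genes of the same pathways, and the DNA replication and mitosis lists, in the knockdown and with each drug; filled points passed an adjusted p of 0.05 and black lines are medians. In the knockdown the deoxynucleotide median of 0.47 lies above the other 3 member groups and below the medians of DNA replication (0.65) and mitosis (0.59).

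Torin-1 was compared with apilimod directly, in the fit of all 6 drug libraries, so the DMSO libraries entered the estimate of the spread but not the difference. Of the 33 members 2 were higher and 16 lower with Torin-1, where 20.5% of all genes tested were higher and 26.2% lower. NME1 (log2 fold change -1.13, adjusted p = 4.13e-09), PGD (-1.04, adjusted p = 2.08e-09), PAICS (-0.63, adjusted p = 1.57e-07), RPIA (-0.57, adjusted p = 8.78e-04), UMPS (-0.54, adjusted p = 1.20e-04) and IMPDH1 (-0.51, adjusted p = 7.12e-04) were the 6 with a difference of at least 0.5. PGD thus stood at 363 and 339 CPM with one inhibitor and at 168 and 171 CPM with the other, on either side of 196 and 191 CPM with DMSO. The 2 higher genes were RRM2 (0.20, adjusted p = 0.00163) and GMPS (0.16, adjusted p = 0.0490); with the DMSO libraries left out of the fit, RRM2 alone was higher. Leaving out 1 library ended the calls of GMPS (without the second Torin-1 or either apilimod library, adjusted p up to 0.240), CAD (up to 0.307), CMPK1 (up to 0.0665) and PRPS1 (0.0528), and with quantile normalization the split was 4 higher and 15 lower.

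Set side by side, 13 members were higher in the knockdown and lower with Torin-1, which was 54.2% of the 24 and 76.5% of the 17. These shares are near the members' own call rates, 51.5% of the 33 lower with Torin-1 and 72.7% higher in the knockdown. Over the 13235 genes tested in both tables, 1373 were higher in the knockdown and lower with Torin-1, 47.4% of those higher and 46.5% of those lower. The 13 members were PGD, TALDO1, PRPS1, PPAT, PAICS, IMPDH1, UMPS, CTPS1, CMPK1, RRM1, TK1, NME1 and SAMHD1. Another 10 were called in the knockdown and with neither drug (RPE, GART, ADSL, ATIC, IMPDH2, ADSS, CAD, TYMS, RRM2 and DCK) and 4 with Torin-1 alone (RPIA, PFAS, DTYMK and DUT). TKT was higher in the knockdown and with apilimod. PRPS2, GMPS, DHODH, CTPS2 and RRM2B passed in none of the comparisons with a control. Over the 33 members the log2 fold changes in the knockdown and with Torin-1 had a Spearman rho of -0.23 and a Pearson r of -0.18, a description across genes measured in the same libraries. The difference between knockdown and drugs was not tested, because the tables were normalized separately.

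Each of 4 enzyme pairs in the set consists of paralogs that catalyse the same step, and the ratio of their CPM per kilobase was formed within each library. PRPS1 over PRPS2 was 2.62 and 2.56 with sgNC and 4.12 and 3.73 with sgPIKFYVE-1, and it was 2.71 and 2.46 with DMSO, 2.62 and 2.80 with apilimod and 2.02 and 1.92 with Torin-1. CTPS1 over CTPS2 was 1.99 and 2.01 with sgNC and 2.41 and 2.66 in the knockdown, and fell from 4.35 and 4.27 with DMSO to 3.21 and 3.0 with Torin-1. PRPS1 and CTPS1 passed the test in the knockdown and with Torin-1, and PRPS2 and CTPS2 in neither.
IMPDH1 over IMPDH2 was 0.381 and 0.280 with sgNC and 0.304 and 0.338 in the knockdown, which overlap, and was 0.247 and 0.228 with DMSO against 0.164 and 0.151 with Torin-1. RRM2 over RRM2B was 4.30 and 4.72 with sgNC and 8.88 and 7.92 in the knockdown. With DMSO it was 37.9 and 31.9, and the apilimod ratios of 32.0 and 26.2 and the Torin-1 ratios of 39.6 and 34.8 both overlapped these. The ratios are given as descriptions and were not tested.

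**Figure D4:**
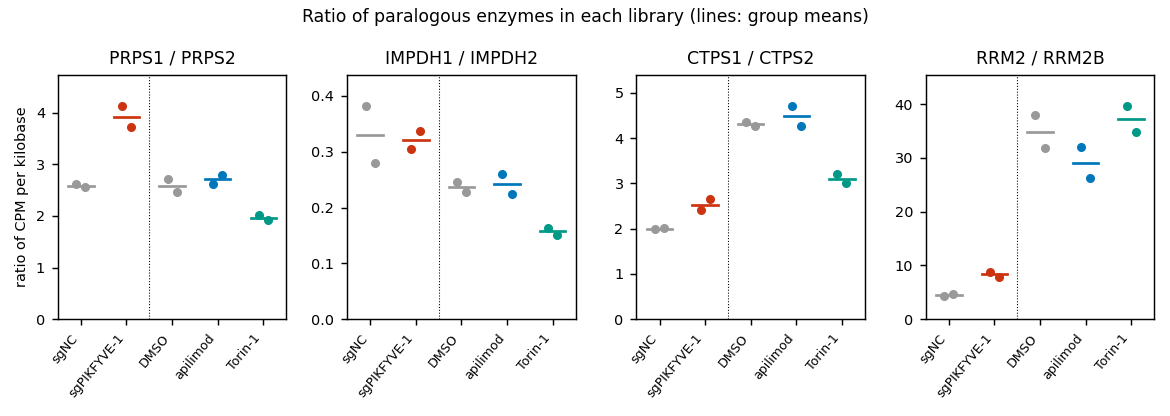
Ratio of CPM per kilobase (y axis, from 0) between the paralogs of 4 enzyme pairs in each library; points are libraries, lines group means, and the dotted line separates the tables. PRPS1 over PRPS2 is highest with sgPIKFYVE-1 (4.12 and 3.73), and IMPDH1 over IMPDH2 and CTPS1 over CTPS2 lie below their DMSO values with Torin-1.

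The other genes of these pathways, a list of 55 salvage, interconversion and folate-linked enzymes was also read. In the knockdown, 12 of 48 tested (25%) were higher and 9 (18.8%) lower, near the 21.6% and 20.9% of all genes tested (median log2 fold change 0.05). The highest were enzymes of the folate cycle: MTHFD1 rose from 53.6 and 49.6 CPM to 102 and 104 CPM (0.99, adjusted p = 1.43e-09) and SHMT1 stood at 0.96. The lowest was AK4, a mitochondrial adenylate kinase, which went from 99.1 and 96.4 CPM to 40.1 and 43.1 CPM (-1.21, adjusted p = 1.32e-10).
With apilimod 3 of 47 were higher and 0 lower, the purine phosphorylase PNP at 0.38 and SHMT1 at 0.43 among them. With Torin-1 2 of 47 (4.26%) were higher and 20 (42.6%) lower (median -0.20), 11 of them among 19 genes of purine salvage and interconversion. AK4 was lowest there too, at 28.4 and 31.7 CPM with DMSO and 5.77 and 5.09 CPM with Torin-1 (-2.27, adjusted p = 9.87e-09), followed by PNP at -0.98, the dCTP pyrophosphatase DCTPP1 at -0.89 and the salvage enzyme APRT at -0.79.

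Of the members, 7 share annotated exon bases with another listed gene. TYMS shares 967 of its 2470 exon bases with ENOSF1 on the opposite strand, which averaged 50.7 CPM in the knockdown table and 79.2 CPM in the drug table, and the counting was not stated to use strand. GART shares 275 of 7751 with SON, and RPE 837 of 3522 with KANSL1L, both on the opposite strand. On the same strand, DCK shares 199 of 3227 with MOB1B, which averaged 67.1 CPM in the knockdown table and 60.6 CPM in the drug table. ADSL shares 1344 of 7111 with AL022238.4, also on the same strand, which averaged 2.39 and 2.23 CPM. SAMHD1 shares 1159 of 11261 with TLDC2, which was at 0 CPM in both tables. The 41 listed pseudogenes named after a member averaged at most 0.56 CPM.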

How the data were processed

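Per the submitters' processing notes, the authors demultiplexed reads with bcl2fastq 2.20 and used FastQC, Trimmomatic, edgeR and DESeq2 with genome build hg38. The quantifier and annotation were not given in the sources used here. Labels describe depletion of ribosomal RNA, the methods oligo(dT) selection. The deposited values are a signal: TMM-scaled CPM per gene, in 2 separately normalized tables whose columns sum to 972493 to 1024330. Plain CPM had been planned for; the same test was kept.

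After a filter (mean of 1 CPM or more), log2(CPM + 1) values were fitted in R 4.3.3 by limma 3.58.1 (trended eBayes), 4 knockdown or 6 drug libraries per fit, with Benjamini-Hochberg adjustment and a threshold of 0.05. The pseudocount understates changes of low genes. The procedure was tested on simulated data. Depth was estimated from the spacing of low values, between 0.03 and 0.5 CPM, of which 80.8% to 83.6% lay within 0.05 of a whole read; counts were not recovered from them. Replicates differed by more than sampling noise (chi-square over expectation 1.85 to 2.71). The members and lists were chosen with earlier results of these data known. Values in every library are given for members past the test with an absolute log2 fold change of at least 0.5 and for 16 enzymes of committed steps. Intervals are 95%. Positions and lengths come from GENCODE release 29, promoters from RefSeq. Alternatives were quantile normalization, no filter, a pseudocount of 0.1, fits of the compared groups alone, without the variance trend or with a replicate block, and each library left out. Figures used matplotlib 3.10.9.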

Additional observations from a re-analysis of the deposited data

How the results depend on the processing

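No gene changed direction past the test. Without the variance trend, members called higher numbered 11 in the knockdown, 1 with apilimod (TKT lost) and 0 for Torin-1 against apilimod. Quantile normalization, which moved the median of all genes by at most 0.035, gave 2 lower with apilimod (RRM1 and RRM2), 1 higher with Torin-1 (RRM2) and 4 higher for Torin-1 against apilimod. Fitting only the compared groups gave 1 lower with apilimod (RRM2) and 1 higher for Torin-1 against apilimod; the latter was also 1 with a pseudocount of 0.1 and with no filter. Calls were also lost in smaller numbers: the knockdown count was 20 with quantile normalization and 18 with no filter, and members lower with Torin-1 numbered 15 with quantile normalization and 13 without the variance trend. For all of these the cause was not tested. With 1 library left out, members higher numbered 17 to 20 in the knockdown, 2 with apilimod and 1 to 2 for Torin-1 against apilimod; members lower numbered 14 to 19 with Torin-1 and 14 to 17 for Torin-1 against apilimod. The knockdown calls lost with any such omission were among genes with log2 fold changes of 0.43 or less. Replicate numbers did not pair the libraries (correlations of deviations 0.037 to 0.104). With the replicate block, 24 were higher in the knockdown, 2 higher and 2 lower (RRM1 and RRM2) with apilimod, 21 lower with Torin-1, and 2 higher and 19 lower for Torin-1 against apilimod. At 2 libraries a group, small changes may go uncalled.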

Other observations

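The control libraries of the tables differed in the members' levels. The mean with DMSO over the mean with sgNC had a median of 2.44 over the 10 deoxynucleotide genes, with RRM2 at 6.52, against 1.28, 1.56 and 1.53 over the pentose phosphate, purine and pyrimidine genes. The same ratio had a median of 3.50 over the 32 DNA replication genes and 4.95 over the 20 mitosis genes. RRM2 was at 110 and 117 CPM with sgNC and at 735 and 741 CPM with DMSO. The tables were normalized separately and differ in line, guide and treatment, so these ratios are values across tables without a test.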
